A study of Mus musculus with 15 samples.

Results

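Wnt signalling was described from 45 genes, 19 Wnt ligands, 15 receptors and 11 secreted inhibitors, chosen by name and role among the 21770 protein-coding genes of the GENCODE annotation of GRCm39. A member was counted as marked in a list when a peak of H3K4me3, a histone mark (lysine 4 of histone H3, trimethylated) of active and poised promoters, overlapped the 2000 bp on either side of any of its annotated transcript starts. The peaks came from ChIP–seq of 12 samples of mBA cells, brown adipocytes differentiated in culture, with 3 input samples. The study asked how loss of the mitochondrial matrix protease CLPP, and the metabolite d-2HG, bear on the chromatin of these cells. Each condition had 4 ChIP samples and 1 input, and the authors called peaks on the 4 samples together, so that each condition had a single list, no spread between samples could be given, and every difference below is one between 3 lists.

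WT cells were of wild-type genotype with no treatment given, and the vehicle they received, if any, is not stated in the labels. WT + 2HG cells were the same genotype and received octyl d-2HG, a form of the metabolite that enters cells, from the third day of differentiation. The methods give this compound in DMSO, so with the WT vehicle unstated the metabolite and DMSO cannot be told apart. CLPP-KO cells lacked Clpp. The methods describe all of them as brown preadipocytes of newborn mice immortalized with SV40 large T antigen, the knockout from animals in which β-actin-Cre had deleted a floxed Clpp throughout the body, whereas the labels call them primary cells. All were grown in high-glucose medium without pyruvate, and the CLPP-KO cultures alone had added uridine. The paper's reporting summary says the mBA line was derived from control and knockout mice, with animals pooled. It defines a replicate as an independent culture. The deletion, uridine and the line of origin therefore cannot be told apart. In such bulk samples fewer cells carrying the mark and less of the mark per cell cannot be told apart either. The WT list held 12342 peaks, that of WT + 2HG 14059 and that of CLPP-KO 15118. A peak at the Clpp promoter stood in all 3 lists, at area percentiles of 39.9, 45.2 and 43.4, which checks nothing about the deletion, since H3K4me3 at a start site says nothing of the deleted part. Of 12 adipocyte markers, 3 were marked in WT and 6 each in WT + 2HG and CLPP-KO. The shares of all protein-coding genes marked, lists in the same order, were 51.3%, 56.4% and 58.2%. Among these brown and general adipocyte markers, Pparg, Cebpa and Prdm16 were marked in every list, and Fabp4, Adipoq, Ucp1, Dio2 and Cidec in none. Plin1 and Cidea were marked in every list but WT, Ebf2 only in CLPP-KO and Lipe only with 2HG. Of 6 fibroblast and preadipocyte markers, 5 were marked in WT and WT + 2HG and 6 in CLPP-KO. Skeletal muscle markers were marked for 1 of 5 genes in WT and in WT + 2HG and 3 of 5 in CLPP-KO, endothelial markers for 1 of 4 in each list, neuronal markers for 2, 2 and 3 of 4, and macrophage and blood markers for 0 of 4 in each list. The part of cell composition in the results below was not tested.

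Wnt proteins are secreted, lipid-modified ligands that bind Frizzled receptors together with the co-receptors LRP5 and LRP6 and thereby stabilise β-catenin, or act through ROR and RYK receptors without it. Secreted inhibitors oppose them either by binding the ligands, as the secreted Frizzled-related proteins and WIF1 do, or by occupying LRP5 and LRP6, as Dickkopf proteins and sclerostin do. In fat, canonical Wnt signalling is known to hold preadipocytes back from differentiation.

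In the lists as deposited, more ligand genes had a promoter peak in both treated lists than in WT. The ligands were marked for 12 of 19 genes in WT (63.2%) and 18 in each treated list (94.7% in WT + 2HG, 94.7% in CLPP-KO), against 51.3%, 56.4% and 58.2% of all protein-coding genes. When each list was limited to its 12342 strongest peaks, the length of the WT list, 12, 13 and 18 ligands were marked, against 51.3%, 53.6% and 53.6% of coding genes, so the count with 2HG then differed from WT by 1 gene. The receptors were at the ceiling, with 15 of 15 marked in each list; under stricter rules they numbered 13, 15 and 15 (area of at least 1000) or 13, 14 and 15 (each peak given to its nearest start). The secreted inhibitors had the lowest share of any role in each list, with 6 of 11 (54.5%) both in WT and in WT + 2HG, and 8 (72.7%) in CLPP-KO. In WT and WT + 2HG their share was near that of all protein-coding genes. Over all members the counts were 33, 39 and 41 of 45.

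**Figure D1:**
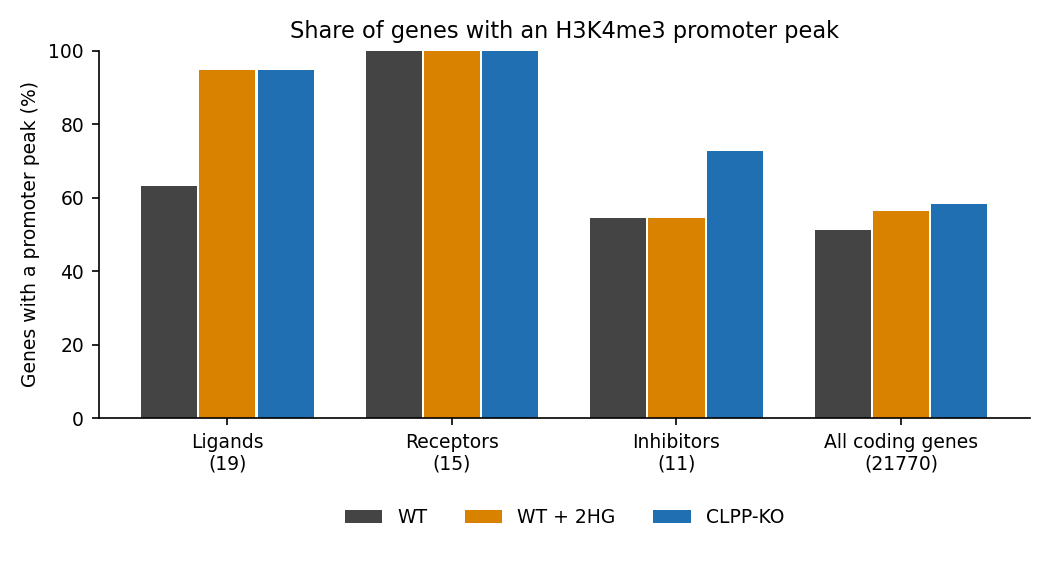
Share of genes with an H3K4me3 promoter peak (vertical axis, %) for the 19 ligands, 15 receptors, 11 inhibitors and all 21770 protein-coding genes, with a bar for each list (WT grey, WT + 2HG orange, CLPP-KO blue). The ligand bars stand at 63.2, 94.7 and 94.7%, the receptor bars at 100% throughout, and the bars of all coding genes between 51.3 and 58.2%; with 1 list per condition there are no error bars.

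By pattern, 33 of the 45 members were marked in all 3 lists, a combination held by 50.6% of all protein-coding genes. They were the ligands Wnt2, Wnt2b, Wnt4, Wnt5a, Wnt5b, Wnt6, Wnt7b, Wnt9a, Wnt10a, Wnt10b, Wnt11 and Wnt16, all 15 receptors (Fzd1 to Fzd10, Lrp5, Lrp6, Ror1, Ror2 and Ryk) and the inhibitors Sfrp1, Sfrp2, Sfrp4, Frzb, Dkk3 and Wif1. In no list were 4 members marked, Wnt8a, Dkk1, Dkk4 and Sost, against 40.6% of coding genes. A gene is called gained here when a treated list marked it and WT did not. Of the 12 members without a WT peak, 6 were gained in both treated lists, all of them ligands, while 9.74% of the coding genes without a WT peak were so gained. In CLPP-KO only, 2 of the 12 were gained, both inhibitors (5.15% of coding genes), and in WT + 2HG only, 0 of the 12 (1.83%). Both comparisons share the WT list, so that the count gained in both does not hold 2 separate observations of what WT lacks. No member was marked in WT and absent from a treated list.

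The 6 ligands gained in both lists were Wnt1, Wnt3, Wnt3a, Wnt7a, Wnt8b and Wnt9b. Wnt1, Wnt3 and Wnt3a are the classical activators of β-catenin signalling, Wnt7a and Wnt9b act in limb and kidney development, and Wnt8b is best known from the forebrain. H3K4 methyltransferase complexes are known to be recruited to CpG dinucleotides through CXXC-domain proteins. The 200 bp upstream of the canonical start are shown for the 4 of them that overlap no annotated exon there, with CG, the only motif searched, in capitals (5′ to 3′ on the coding strand, GRCm39). CG reads the same on both strands and cannot overlap itself.

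Wnt1: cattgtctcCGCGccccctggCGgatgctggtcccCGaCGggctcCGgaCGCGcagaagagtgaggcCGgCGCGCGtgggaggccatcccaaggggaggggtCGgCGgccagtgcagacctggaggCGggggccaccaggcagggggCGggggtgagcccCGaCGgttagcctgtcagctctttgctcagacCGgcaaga
Wnt3: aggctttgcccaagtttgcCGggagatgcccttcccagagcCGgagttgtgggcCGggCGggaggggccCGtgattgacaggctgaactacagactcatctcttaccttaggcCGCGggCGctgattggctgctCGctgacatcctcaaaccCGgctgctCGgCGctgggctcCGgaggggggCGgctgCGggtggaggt
Wnt3a: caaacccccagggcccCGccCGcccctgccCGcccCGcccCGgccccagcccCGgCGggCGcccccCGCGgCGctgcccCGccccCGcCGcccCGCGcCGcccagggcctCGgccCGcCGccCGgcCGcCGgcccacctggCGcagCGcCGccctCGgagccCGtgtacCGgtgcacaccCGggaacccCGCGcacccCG
Wnt9b: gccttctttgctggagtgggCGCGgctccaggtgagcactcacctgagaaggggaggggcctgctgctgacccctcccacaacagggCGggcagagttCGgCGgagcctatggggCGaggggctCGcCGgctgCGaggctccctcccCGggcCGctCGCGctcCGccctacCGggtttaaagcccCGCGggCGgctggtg

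These stretches are chr15:98687538-98687737 (plus strand) for Wnt1, chr11:103664776-103664975 (plus) for Wnt3, chr11:59181585-59181784 (minus) for Wnt3a and chr11:103640656-103640855 (minus) for Wnt9b. They held 19, 15, 33 and 18 CG, respectively. Over all 21770 coding genes the median was 7, and 90.6% of such stretches held at least 1.

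For comparison, the same stretch is given for Sfrp5, gained in CLPP-KO only, and for Dkk4 and Sost, marked in none.

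Sfrp5: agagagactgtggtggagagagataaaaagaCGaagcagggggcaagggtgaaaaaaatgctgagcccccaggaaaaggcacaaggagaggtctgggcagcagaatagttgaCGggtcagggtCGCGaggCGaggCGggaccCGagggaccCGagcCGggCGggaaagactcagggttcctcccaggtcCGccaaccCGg
Dkk4: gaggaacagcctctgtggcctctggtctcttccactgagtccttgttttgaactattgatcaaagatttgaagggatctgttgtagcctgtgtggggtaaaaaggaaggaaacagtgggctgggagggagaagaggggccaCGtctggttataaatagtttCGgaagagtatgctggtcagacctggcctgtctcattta
Sost: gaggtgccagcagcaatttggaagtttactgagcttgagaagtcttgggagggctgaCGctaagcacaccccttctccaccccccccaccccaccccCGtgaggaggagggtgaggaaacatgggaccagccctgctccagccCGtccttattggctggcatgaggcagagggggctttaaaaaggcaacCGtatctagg

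They lie at chr19:42190692-42190891 (minus strand) for Sfrp5, chr8:23113859-23114058 (plus) for Dkk4 and chr11:101857848-101858047 (minus) for Sost. Sfrp5 held 12 CG, Sost held 4 and Dkk4 held 2. Of the members not shown, the unmarked Wnt8a held 3 and Dkk1 held 2, Dkk2 held 6, and the gained ligands Wnt7a and Wnt8b held 17 and 4. The unmarked members thus held 2 to 4, and Wnt8b, whose peak lies away from this stretch, held as few. The CG of this stretch was not counted over coding genes of the same pattern, so no trait of the members is drawn from it.

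The strength of a peak was read from the authors' area under the curve of its significance, which grows with depth as well as with enrichment and is not scaled between lists. It is therefore given as a percentile among the peaks of its own list, 100 being the strongest; a fixed minimum of 1000 was used only as an alternative. The gained ligand peaks were weak, more so in WT + 2HG than in CLPP-KO. Wnt1 had no WT peak, and its strongest peak was chr15:98687524-98688046 in WT + 2HG (523 bp, percentile 10.4) and chr15:98687371-98688196 in CLPP-KO (826 bp, percentile 24.8). Both summits fell in the first bases of the gene, 68 and 76 bp downstream of the start, and the nearest WT peak was 11007 and 10854 bp away from them. A second, weaker peak stood in each treated list (percentiles 9.6 and 11). The neighbouring Wnt10b has an annotated start near these peaks, so they were counted for Wnt10b as well.

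Wnt3 had peaks at chr11:103664501-103665000 in WT + 2HG (500 bp, percentile 12.7) and chr11:103664207-103665269 in CLPP-KO (1063 bp, percentile 31.0). Their summits lay upstream of the start, by 267 and 499 bp. Wnt3a, the ligand most used to activate the pathway in culture, had peaks at chr11:59181201-59181641 in WT + 2HG (441 bp, percentile 5.99) and chr11:59181171-59181623 in CLPP-KO (453 bp, percentile 19). Those summits were 140 bp downstream in the first exon and 233 bp downstream in the first intron.

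Wnt7a was covered by chr6:91388280-91388688 in WT + 2HG (409 bp, percentile 11.2) and chr6:91387872-91388682 in CLPP-KO (811 bp, percentile 26). Starts of 3 noncoding transcripts lie within the window, so the mark cannot be given to Wnt7a alone. Wnt9b, which lies 24.3 kb from Wnt3 on the opposite strand, had a peak of 265 bp in WT + 2HG (chr11:103640638-103640902, percentile 5.49) and of 701 bp in CLPP-KO (chr11:103640271-103640971, percentile 21.0).

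Wnt8b was the exception in position. Its peaks, chr19:44500103-44500431 in WT + 2HG (329 bp, percentile 12.9) and chr19:44499884-44500814 in CLPP-KO (931 bp, percentile 30.2), fell in an exon, 18323 and 18321 bp downstream of the canonical start. They were counted through a second annotated start, whose nearest peak edges were 1343 and 1124 bp away, and the canonical start was covered in no list. Of the marked members, Wnt8b was the one furthest out in its window; a window of 1000 bp no longer held its peaks. The unmarked member nearest to the limit was Sost, with the closest peak edge 2945 bp from the start in WT, and 2567 and 2633 bp in the treated lists.

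In all 6 ligands the WT + 2HG and CLPP-KO peaks overlapped, and the CLPP-KO peak was the wider, by 1.03 times in Wnt3a to 2.83 times in Wnt8b. The 6 had a median percentile of 10.8 with 2HG and 25.4 in CLPP-KO. Among all 1033 coding genes gained in both lists it was 17.3 and 24.4. When each list was limited to its 12342 strongest peaks, all 6 were still marked in CLPP-KO, but only Wnt3 and Wnt8b of the members were gained in both, Wnt1, Wnt3a, Wnt7a and Wnt9b were gained in CLPP-KO only, and the share of coding genes without a WT peak that were gained in both was 5.42% rather than 9.74%. With an area of at least 1000 required, none of the 6 was marked in WT + 2HG. Read depth per sample is not given in the lists, so its part in list length was not tested.

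**Figure D2:**
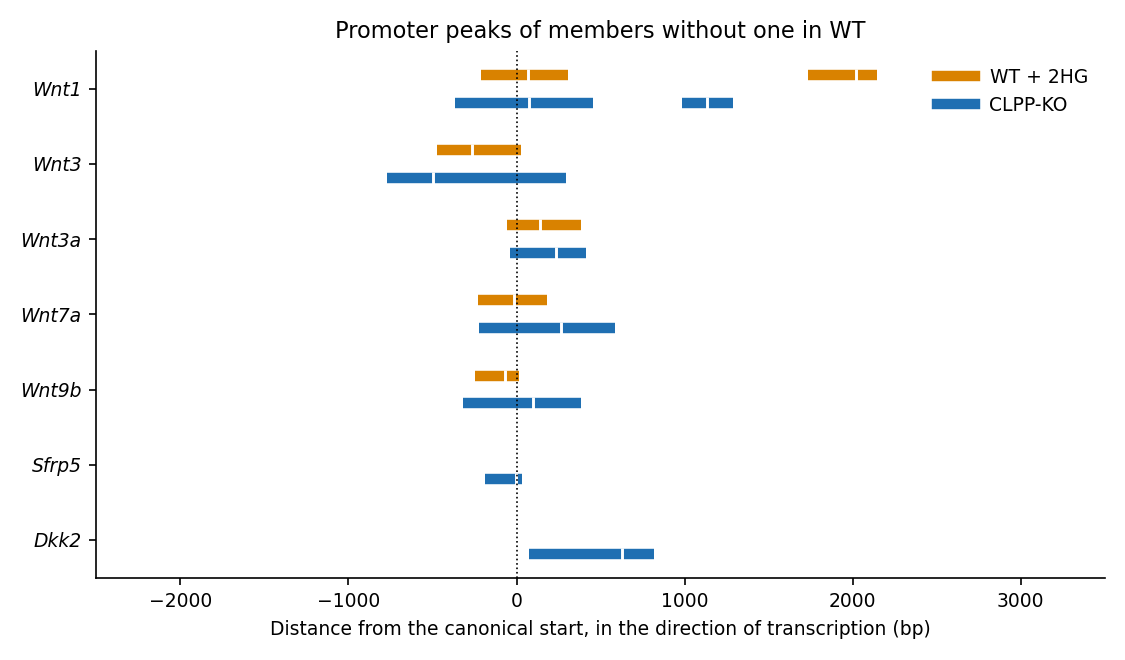
Promoter peaks of 7 of the 8 members that had none in WT, drawn as bars by distance from the canonical start in the direction of transcription (horizontal axis, bp), WT + 2HG in orange and CLPP-KO in blue, with the summit as a white tick. The bars of Wnt1, Wnt3, Wnt3a, Wnt7a and Wnt9b overlap between the lists at or beside the start and Sfrp5 and Dkk2 have a CLPP-KO bar only; Wnt8b, whose peak lies 18323 bp from its canonical start, is left out.

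The 2 inhibitors gained in CLPP-KO only were Sfrp5, which binds WNT5A and is made by adipocytes, and Dkk2, a ligand of LRP5 and LRP6. Sfrp5 had a single narrow peak at chr19:42190657-42190878 (222 bp, percentile 6.39), with its summit 5 bp upstream of the start. Dkk2 had one at chr3:131791116-131791862 (747 bp, percentile 11.9), with its summit 630 bp downstream in an exon. Neither had a peak within 30 kb of its start in WT or in WT + 2HG. Both fell among the weakest CLPP-KO peaks and were absent when the lists were of equal size.

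Among the members marked in a given list, the receptors had the highest median peak strength. The marked receptors had median percentiles of 75.2, 81.4 and 82.5 (WT, WT + 2HG and CLPP-KO), against 59.3, 60.6 and 62.0 for all coding genes with a promoter peak. Marked ligands had medians of 36.5, 24.5 and 32.6, and marked inhibitors 38.0, 35.8 and 37.2. Of the ligands, 3 of 12 in WT lay in the upper part of their list, above its median peak, and of the receptors 12 of 15 did. Of the 11159 coding genes with a WT promoter peak, 6757 did. Wnt5b was among those ligands only through a peak nearest to the start of Fbxl14, and the WT peak at its canonical start was at 40.5. The medians of ligands and inhibitors are taken over partly different genes in each list, because the gained peaks enter the treated lists only. They therefore do not show how the same genes differ between lists.

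The Frizzled genes spanned nearly the whole range. Fzd8 had the highest WT percentile of any receptor, 99.8, at chr18:9212207-9215135 (2929 bp), and stood at 99.3 (chr18:9212141-9215144, 3004 bp) in WT + 2HG and 98.9 (chr18:9212135-9215089, 2955 bp) in CLPP-KO. Fzd1, Fzd2 and Fzd7 were likewise above 97 in each list. Fzd10 had the lowest receptor value in WT, 6.73, at chr5:128677929-128678482 (554 bp). Its peak was at 53.8 in WT + 2HG (chr5:128677415-128678977, 1563 bp) and 40.1 in CLPP-KO (chr5:128677113-128678882, 1770 bp), in a window it shares with the noncoding Fzd10os. Fzd9 stood at 19.9, 47.4 and 47.8, and Fzd3 at 32.2, 64.1 and 58.6. The co-receptors Lrp5 (77.7, 93.4 and 95.4) and Lrp6 (72.8, 89.8 and 88.7) were also placed higher in both treated lists than in WT. The tyrosine kinase-like receptors Ror1 (69.3, 74.8 and 62.6) and Ror2 (79.9, 72.3 and 62.5), which bind WNT5A, were lowest in CLPP-KO, and Ryk was at 75.2, 80.6 and 80.4. Fzd4 (73.1, 81.4 and 82.5), Fzd5 (84.8, 94.3 and 98.5) and Fzd6 (59.7, 61.1 and 62.0) completed the family.

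Of the ligands, Wnt7b had the lowest WT percentile, 3.78, at chr15:85464955-85465520 (566 bp). In WT + 2HG the peak there was 1122 bp wide at 21.6 (chr15:85464999-85466120), and in CLPP-KO 1859 bp wide at 71.3 (chr15:85464541-85466399). The window also holds the start of the noncoding AU022754, which was the nearest start to the summit in WT and CLPP-KO. Wnt4 stood at 26.3, 51.0 and 81.4, and Wnt2b at 29.6, 46.5 and 62.3. Wnt5a, which acts mainly without β-catenin, stood at 45, 61.1 and 65.4, Wnt9a at 58.8, 70.0 and 69.2, and Wnt2 at 19.4, 25.8 and 34.8. By their strongest peaks, Wnt6 (81.5, 78.8 and 61.9), Wnt10a (46.9, 59.9 and 32.0) and Wnt11 (43.3, 34.5 and 33.1) were lowest in CLPP-KO. For Wnt11 these were not the same peak. The WT value came from an upstream start, and the peak at the canonical start was at 19.9, 34.5 and 33.1, lowest in WT. Wnt10b, the Wnt known for restraining adipogenesis, was in the lower part of every list (16.4, 23.1 and 25.8), as was Wnt16 (14.0, 6.82 and 22.2). By the counting rule Wnt5b had the highest ligand value in WT, 97.5, at chr6:119456723-119458499 (1777 bp), with 98.2 (chr6:119456707-119458425, 1719 bp) and 98.7 (chr6:119456705-119458398, 1694 bp) in the treated lists. The nearest start to that peak belongs to Fbxl14, however, and the peak at the canonical Wnt5b start was at 40.5, 75.9 and 60.8.

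Among the inhibitors Sfrp1 was highest in WT, at 53.5 (chr8:23901292-23902669, 1378 bp), and stood at 79.0 with 2HG (chr8:23901287-23902736, 1450 bp) and 90.2 in CLPP-KO (chr8:23901252-23902722, 1471 bp). Wif1 was lowest, at 7.42 in WT (chr10:120869304-120869744, 441 bp), 15.4 in WT + 2HG (chr10:120869483-120870339, 857 bp) and 25 in CLPP-KO (chr10:120869639-120870432, 794 bp). The percentile of Sfrp2 was 44.8 in WT and 44.0 in WT + 2HG, while it was 83.1 in CLPP-KO. Frzb, another secreted Frizzled-related protein, stood at 43.4, 51.8 and 65.8, and Sfrp4 at 32.5, 27.6 and 49.4. Dkk3, a divergent Dickkopf, was the one inhibitor lowest in CLPP-KO, at 31.5, 27.5 and 19.7.

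**Figure D3:**
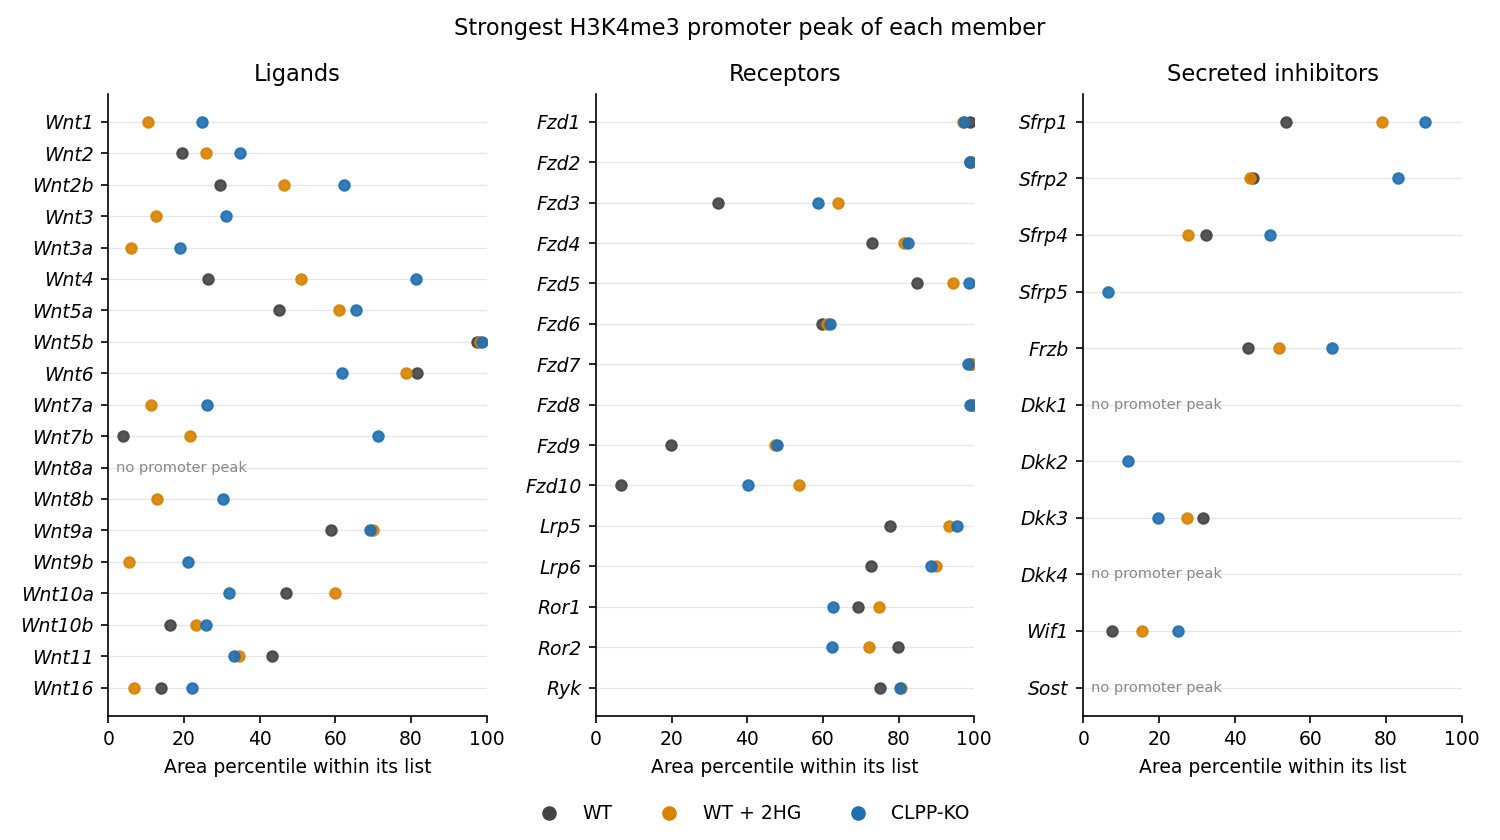
Area percentile of the strongest promoter peak (horizontal axis, 0 to 100 within its own list) for each ligand, receptor and secreted inhibitor, with a point for each list that marks the gene (WT grey, WT + 2HG orange, CLPP-KO blue). Fzd1, Fzd2, Fzd7 and Fzd8 sit above 97 in every list, the 6 ligands without a grey point sit between 5.49 and 31.0, and Wnt8a, Dkk1, Dkk4 and Sost have no point.

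Percentiles in a longer list are shifted upward by its added weak peaks. The members marked in every list were therefore also ranked among the 11021 coding genes marked in all 3, the same genes each time. Of the 33 members, 19 then stood higher in WT + 2HG than in WT and 20 in CLPP-KO (5350 and 5257 of the 11021 genes). Some rises within the lists did not hold. Wnt10b stood at 7.93, 5.09 and 4.93, Wnt2 at 10, 6.75 and 10.6, and Wif1 at 2.94, 1.98 and 4.62. On this scale the change from WT to CLPP-KO ran from −23.1 to 25.5 points between the 5th and 95th percentiles of those genes. Of the 33 members, 4 lay above the upper bound and 3 below the lower one; they were singled out after their values were seen. Wnt4 stood 56.1 points higher in CLPP-KO (15.4 to 71.5), Wnt7b 54.9 (1.4 to 56.3), Sfrp1 42.3 (42.5 to 84.8) and Sfrp2 40.6 (33.2 to 73.9). At Wnt4 the WT list had 2 peaks, of which only the stronger was ranked, while CLPP-KO had 1 peak spanning both. The bases covered there were 1181 bp in WT and 1794 bp in CLPP-KO, and the part of this division in the difference was not tested. Wnt4 and Wnt7b are ligands, whereas SFRP1 and SFRP2 bind ligands, so genes of opposed roles stood among the largest upward differences. The difference was −33.9 points for Wnt6 (76.4 to 42.6), −31.1 for Ror2 (74.6 to 43.5) and −26.8 for Wnt10a (35.4 to 8.62). At Wnt6 too only the strongest peak was ranked. Its weaker peak, counted through another annotated start, went the other way, at percentiles of 23.9, 40.3 and 57.5 within WT, WT + 2HG and CLPP-KO. Wnt6 and Wnt10a are neighbours, 19.8 kb apart on the same strand.

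From WT to WT + 2HG the corresponding bounds were −23.6 and 24.4 points, and 3 members exceeded the upper one and 0 the lower. They were Fzd10 (32.9 points, 2.57 to 35.5), Fzd3 (28.6 points, 20.3 to 48.9) and Sfrp1 (27.3 points, 42.5 to 69.8). Wnt4 stood 16.6 points higher in WT + 2HG and Wnt7b 2.99, both inside those bounds, and Sfrp2 differed by −9.65. Sfrp1 was thus the single member past the upper bound in both comparisons, which share the WT list. By role, the median change to CLPP-KO was 0.912 points for ligands, 1.15 for receptors and 11.1 for inhibitors, against −0.517 for all 11021 genes. To WT + 2HG it was 1.78, 3.37 and −5.31, against −0.263.

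**Figure D4:**
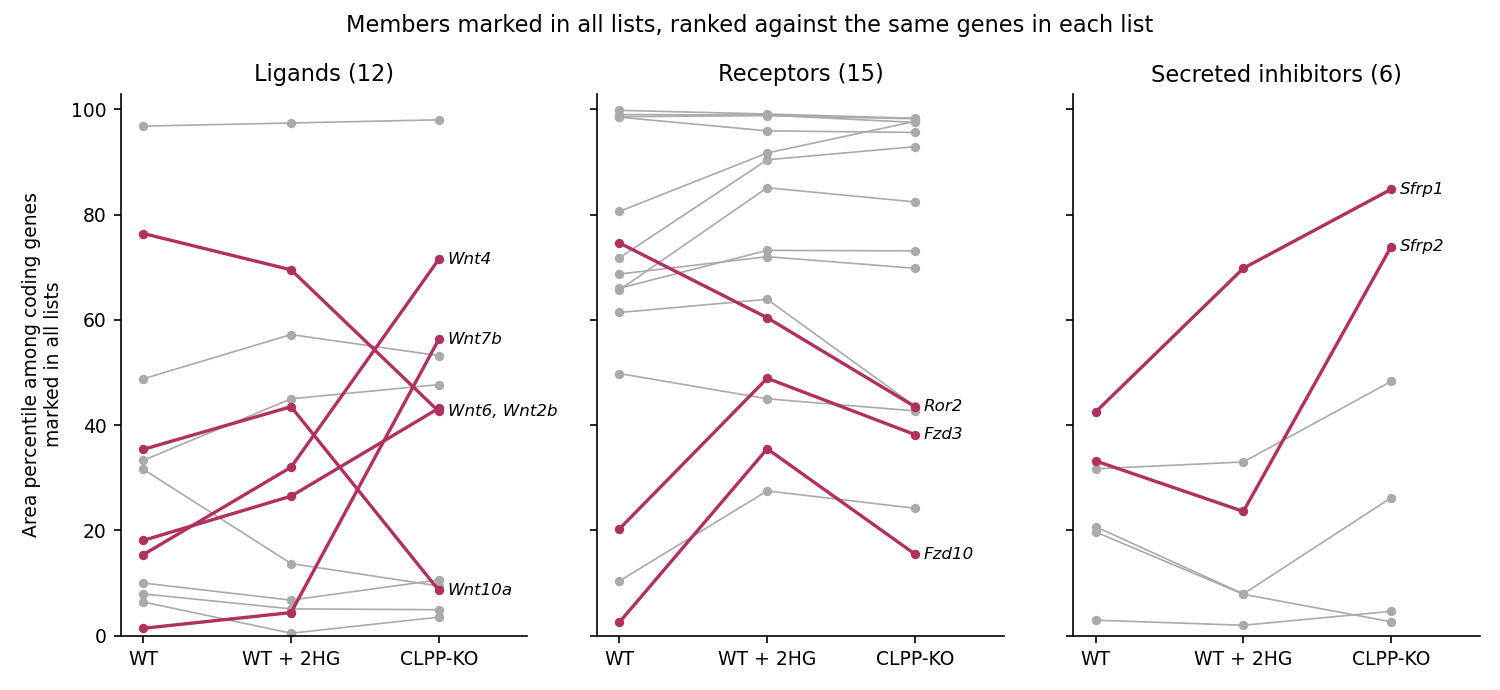
Area percentile of the 33 members marked in every list among the 11021 coding genes marked in all 3 (vertical axis), joined across WT, WT + 2HG and CLPP-KO (horizontal axis) and split by role. Coloured, named lines mark members that differ from WT by more than 25 points in either treated list; Wnt4, Wnt7b, Sfrp1 and Sfrp2 end 40.6 to 56.1 points above WT in CLPP-KO, and Wnt6, Ror2 and Wnt10a end below it.

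The width of the marked stretch was compared in the same way, as the base pairs covered by peaks within 2000 bp of the canonical start. More was covered in WT + 2HG than in WT for 24 of the 33 members (72.7%) and in CLPP-KO for 26 (78.8%), against 70.1% and 69.7% of the 11021 coding genes. In CLPP-KO these were 13 of 15 receptors, 8 of 12 ligands and 5 of 6 inhibitors. Wnt7b was covered for 566, 1122 and 1859 bp in WT, WT + 2HG and CLPP-KO, Fzd10 for 554, 1563 and 1770 bp, and Sfrp2 for 909, 1280 and 1512 bp. Dkk3 had less in both treated lists, 1220, 731 and 454 bp, and so did Wnt11, 1106, 779 and 615 bp. The summit of the strongest peak lay downstream of the nearest start of the member in 29 of 33 marked members of WT, 31 of 39 of WT + 2HG and 36 of 41 of CLPP-KO. The side of the summit was not counted over all coding genes, so no trait of the members is drawn from these counts.

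Of the ligand genes, 4 pairs are neighbours. Wnt3 and Wnt9b, on chromosome 11, were both gained in both treated lists. Wnt3a and Wnt9a lie 16.0 kb apart on the same chromosome, and Wnt1 and Wnt10b 11.3 kb apart on chromosome 15. In each of these pairs the first was gained and the second was marked in every list. Wnt6 and Wnt10a were both marked in every list.

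The CpG content of the promoters, which the choice of members did not use, differed between the patterns. In the 1001 bp centred on the canonical start, 32 of 45 members (71.1%) had the composition of a CpG island (an observed/expected CpG ratio of at least 0.6 and at least 50% G + C), against 46.0% of coding genes. All 15 receptors did, 12 of 19 ligands and 5 of 11 inhibitors, and the median ratio was 0.813, 0.741 and 0.503. Of members marked in all lists, 27 of 33 did (81.8%, against 79.7% of coding genes with that pattern). Of those gained in both treated lists, 4 of 6 did (66.7%, against 52.7%), and of the unmarked members 0 of 4 (against 4.76%). The members' shares thus stood near those of other coding genes with the same pattern. The ratio of the gained ligands was 0.580 for Wnt1, 0.617 for Wnt3, 0.741 for Wnt3a, 0.766 for Wnt9b, 0.835 for Wnt7a and 0.325 for Wnt8b, whose canonical start was not covered. The unmarked Sost (0.216), Wnt8a (0.246), Dkk4 (0.306) and Dkk1 (0.445) were among the lowest. Wnt16 (0.363), Wnt10a (0.394) and Dkk3 (0.426) were lower than Dkk1 and were marked in every list.

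**Figure D5:**
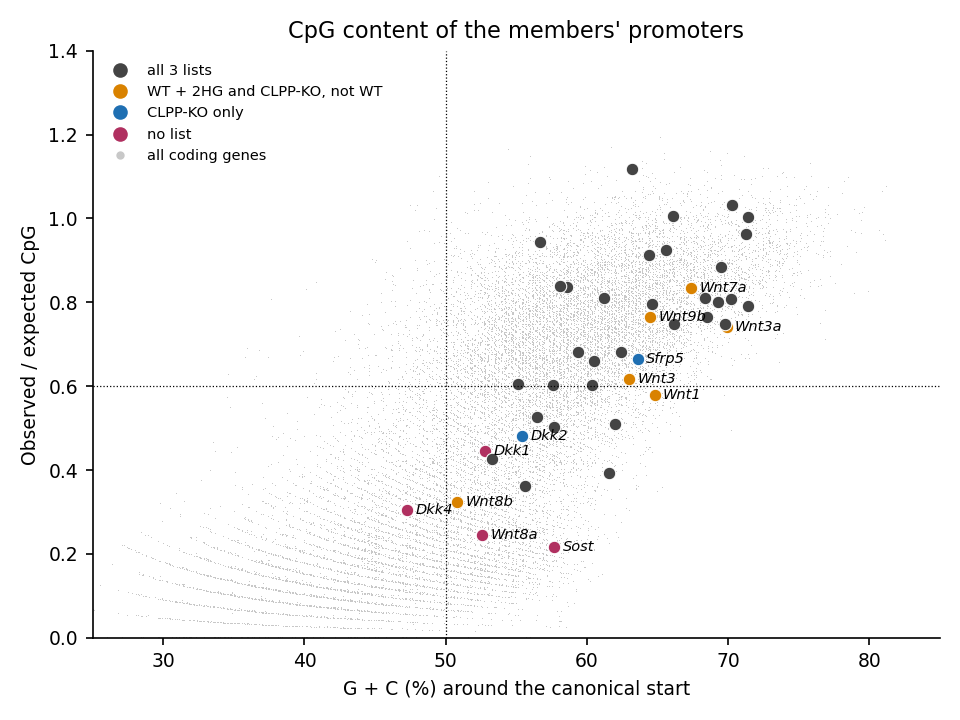
Observed/expected CpG ratio (vertical axis) against G + C content (horizontal axis, %) in 1001 bp around the canonical start of each member (large points, coloured by the lists that mark it) and of all coding genes (small grey points), with dotted lines at 0.6 and 50%. The 4 unmarked members lie at ratios of 0.216 to 0.445, below the dotted line, and 4 of the 6 ligands gained in both treated lists lie above it.

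The wider pathway was taken from 43 genes listed by function. They were marked for 36 genes in the WT list, for 40 with 2HG and for 42 in CLPP-KO, where 51.3%, 56.4% and 58.2% of all coding genes were marked. All 12 nuclear genes, the TCF/LEF factors and their partners, were marked in every list. Of the 17 genes of the destruction complex and transducers, 15 were marked in WT and 17 in each treated list; the 2 without a WT peak were Apc2, a relative of the tumour suppressor Apc (percentiles 71.0 and 76.9), and Amer1, a scaffold of that complex (27.6 and 21.0). Of the 14 genes of secretion and agonists, 9 were marked in WT, with 11 and 13 in the treated lists. Porcn, the acyltransferase that every Wnt ligand needs for secretion, was gained at percentiles of 12.6 and 29.3, and the R-spondin receptor Lgr6 at 17.7 and 33.9. In CLPP-KO only, the agonist Rspo4 (3.54) and the Dickkopf receptor Kremen2 (10.5) were gained. Rnf43, a ligase that removes Frizzled proteins from the surface, was marked in no list. Of the 7 pathway genes without a WT peak 4 were gained in both treated lists, against 9.74% of such coding genes. These pathway counts were taken from the lists as deposited and were not repeated with lists of equal size.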

How the data were processed

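H3K4me3 ChIP–seq was made in 12 samples (WT, WT + 2HG and CLPP-KO, 4 each) with 3 inputs. The authors trimmed reads with fastp 0.23.4, mapped them to GRCm39 with BWA 0.7.17 and called peaks with Genrich 0.6.1 on the 4 replicates of a condition together; deepTools 3.5.4 is also named in the submitters' processing notes. The deposited lists give each peak's score, its signal (area under the curve of significance) and its summit −log10 p-value, all as the authors made them. The q field is −1 throughout, and the smallest area is 200.0 in each list. The command printed in the paper's reporting summary differs, with a q cutoff and a lower minimum area. That command also leaves out chromosomes X, Y and M. The lists hold no read counts, so depth is unknown and no interval from it was given.

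Starts and exons came from GENCODE M39. Of 41519 peaks 0 ended beyond a chromosome of the GRCm39 FASTA, and 300 lay on unplaced or unlocalised contigs under names with no match there. The FASTA also gave the sequences, in place of a promoter table on another build, and 1 sequence is not reported here. A peak counted for a gene when it overlapped its window by at least 1 bp. No test was made: there is 1 list per condition, and counts are set beside all protein-coding genes. Coordinates and values in every list are given for members marked in some but not all lists and for the highest and lowest WT percentile of each role; other members and pathway genes are given in brief. The members, lists and rules were chosen with earlier results of these data known. The code was tested on simulated data and against bedtools 2.31.1. Python 3.11.15, numpy 2.4.6 and matplotlib 3.10.9 were used. Alternatives changed the window, the starts, the assignment of peaks, the list sizes, the p and area thresholds and the measure of rank.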

Additional observations from a re-analysis of the deposited data

Results flagged for a closer look

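Peaks inside a member gene but outside that gene's own promoter windows numbered 3 in the WT list, 4 with 2HG and 9 in CLPP-KO. They lay in 3, 4 and 8 of the 45 members (6.67, 8.89 and 17.8%), while 2.57, 3.92 and 4.28% of all protein-coding genes had such a peak. No test of the difference was possible. An intronic peak of Wnt3 lay 36043 bp from its start in WT (percentile 6.76) and was at 37.0 with 2HG and, for the stronger of 2, at 22.6 in CLPP-KO. An intronic peak of Wnt3a, 26572 bp from its start in WT, stood at 27.5, 23.1 and 26.5. Both genes thus had a peak within the gene in WT while their promoter windows had none. In Sost, exonic peaks lay 3103 bp from the start in WT, and 3039 and 3186 bp in WT + 2HG and CLPP-KO, at percentiles of 0.433, 27.4 and 34.3. Wnt10a had an exonic peak in WT + 2HG (19.1) and CLPP-KO (33.3), and Wnt1 (14.7), Wnt8a (4.90), Wnt10b (2.03) and Fzd5 (7.52) had one in CLPP-KO only. The one in Wnt1 lies in a promoter window of Wnt10b and was counted there.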

How the results depend on the processing

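No paired analysis was possible because each condition has a single list of peaks called on its 4 samples together; for the same reason no sample could be left out. With lists of equal size, members gained in both treated lists numbered 2 in place of 6, and Wnt16 was absent from WT + 2HG. With an area of at least 1000, ligands marked in WT + 2HG numbered 11 in place of 18, and members gained in either treated list 13 in place of 8. Members gained in CLPP-KO only numbered 4 with lists of equal size and 8 with an area of at least 1000, in place of 2, and members gained in WT + 2HG only numbered 1 with each peak given to the nearest start, in place of 0. The other counts by role, and of members gained in either or both lists, stayed within 1.5 times under the 10 alternatives. Wnt8b was lost as a gained ligand with a window of 1000 bp, with coding transcripts only and with the gene's 5′ end only, where Wnt10b was gained instead. Sost was marked with windows of 3000 and 5000 bp. With each peak given to the nearest start, Wnt7b, Fzd7 and Fzd9 differed in their lists.

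The receptors had the highest median percentile of the 3 roles in every list under each measure. By summit p the medians of ligands, receptors and inhibitors were 37.8, 77.0 and 34.0 in WT, 25.7, 80.8 and 30.0 in WT + 2HG, and 34.1, 73.1 and 32.5 in CLPP-KO. By width they were 46.1, 77.3 and 69.2, then 38.5, 85.7 and 63.0, and 50.9, 92.4 and 49.7. With equal-sized lists they were 39.1, 78.8 and 26.8 in WT + 2HG and 17.4, 78.6 and 48.1 in CLPP-KO. Taking only peaks nearest to the member's own start, a choice made after seeing the data, gave 40.5 for ligands in WT and 85.6 for receptors in WT + 2HG. The cause of these differences was not tested.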
